A study of Mus musculus with 2 samples.

Results

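Egr factors and feedback genes that T cell precursors switch on through the ERK pathway were followed on 2 oligonucleotide arrays, 1 of Miz-1 knockout and 1 of wild-type DN3 thymocytes. The 10 genes are the zinc finger transcription factors Egr1, Egr2 and Egr3, the orphan nuclear receptor Nr4a1, the phosphatases Dusp1, Dusp2, Dusp4, Dusp5 and Dusp6, and Spry1. These genes were chosen with earlier results of these data known. Their probe sets were taken by gene symbol alone, as all those of the table annotated with exactly 1 of these 10 names. This gave 12 probe sets among 45037 and 10 genes among 18193. DN3 thymocytes were sorted as cells negative for lineage markers and CD44 and positive for CD25. Both samples were from mice of the C57BL/6 background. The knockout animals carried an allele of Miz-1 (gene Zbtb17) that lacks the POZ domain, through which this zinc finger factor binds its partners, and the controls were wild type. The labels give neither the age of the mice, nor any pooling of animals, nor the cells in which the allele was deleted. The series as a whole asks what loss of Miz-1 function does to gene expression at the DN3 stage.

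The pre-T cell receptor, assembled once a thymocyte has rearranged its T cell receptor beta gene, signals through Ras to the kinases RAF, MEK and ERK. ERK then phosphorylates ternary complex factors that sit with SRF on CArG boxes, and immediate early genes such as those of the Egr family are transcribed within a short time. Egr factors are known to help thymocytes pass beta-selection. The same signal induces its own brakes, namely dual-specificity phosphatases that remove phosphate from ERK and its relatives and Sprouty proteins that act on the path to Ras and RAF.

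With 1 array per genotype, no difference could be tested, no value has an error between animals, and sizes alone are given. Values are signals in arbitrary units. A floor was set at 394, the median of all values, signals below it were raised to it before a ratio was taken, and a gene is called measured if its brightest probe set has a mean signal above it. Of the 10 genes 8 were measured and 2, Egr2 and Egr3, were not. Dusp5 and Dusp6 passed through the knockout array alone, since their wild-type signal lay under the floor. For the 4514 genes with several measured probe sets, the SD of log2 ratios within a gene was 0.57 (root mean square). It describes disagreement within this pair of arrays and says nothing about animals. Xist, the transcript of the inactive X chromosome, read 55300.0 in knockout cells and 423 in wild-type cells, so sex and genotype cannot be told apart. All 7 markers fixed for DN3 cells, among them Ptcra, Rag1 and Notch1, were above the floor on both arrays, with summed signals of 157672 in knockout cells and 105662 in wild-type cells. Il2ra, which encodes the CD25 of the sort, was 4.61-fold higher in the knockout and the Notch target Dtx1 5.09-fold higher. Of the markers of later thymocytes, Cd8a and Cd2 were above the floor on both arrays, Cd4 was under it on both, and Cd8b1 read 36.8 against 679.

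Dusp5 was higher in the knockout, at least 3.87-fold. Spry1 was 1.87-fold lower, and Egr1, Nr4a1, Dusp1 and Dusp2 lay within 0.25 of 0 on the log2 scale, which is 4 of 8 measured members against 29.2% of all measured genes. By the 2-fold rule 1 of 8 measured members was higher and none was lower. Among all 10770 measured genes the rule called 7.23% higher and 5.65% lower, so a single call among 8 is close to the background. At 1.5-fold 1 member was higher (Dusp5) and 1 lower (Spry1), against 19.2% and 17.9% of all measured genes. The median log2 ratio of the 8 was 0.15, against 0.00021 over all measured genes, and 5 were above 0 and 3 below. The 5 include Dusp5 and Dusp6, which were measured through the knockout array alone. Egr3, above the floor in the wild type alone, was left out, so the median and the split depend in part on the filter. With entry by the brighter array, which takes in Egr3, the median was 0.13.

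**Figure D1:**
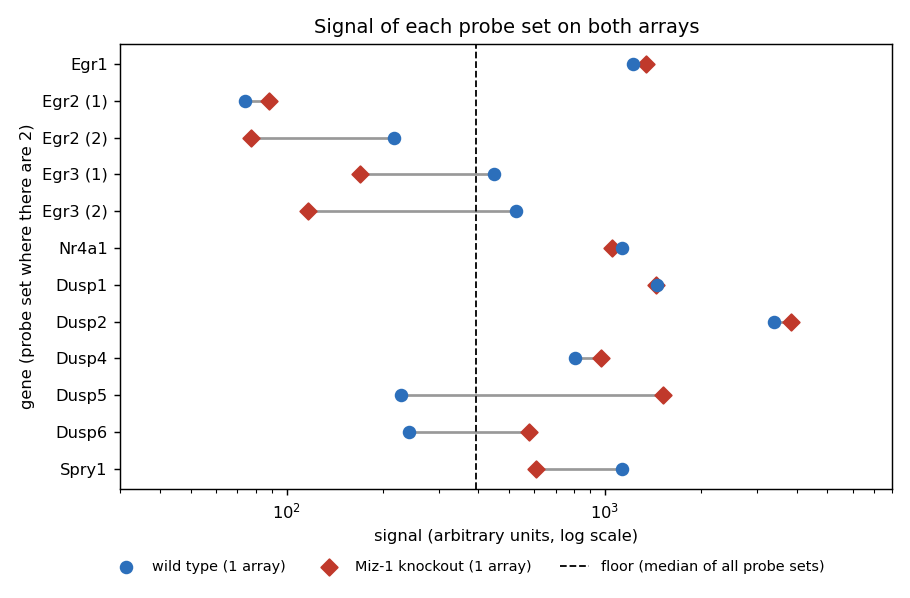
Signal of the 12 probe sets on the knockout array (red diamonds) and the wild-type array (blue circles), on a logarithmic axis in arbitrary units, with the floor of 394 as a dashed line. For Egr2, 1427682_a_at is numbered 1 and 1427683_at is numbered 2, and for Egr3, 1421486_at is 1 and 1436329_at is 2. Dusp5 spans the floor from 229 to 1523, while the Dusp1 points nearly coincide at 1460.1 and 1442.

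Egr1, an immediate early gene widely used as a reporter of ERK activity, read 1342 in knockout cells and 1225 in wild-type cells. Both signals lay well above the floor and differed by a log2 ratio of 0.13, which is 0.229 of the SD between probe sets. Of the measured genes 42.4% had a higher ratio than Egr1. Its ratio was above 0 in all 11 settings, between 0.024 and 0.13. With a single probe set above every floor used, only median centring, quantile normalization, loess and the pseudocount could move it.

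Egr3, which supports survival and proliferation of thymocytes after the pre-T cell receptor signal, was dimmer in the knockout by both of its probe sets. Probe set 1436329_at read 117 in knockout cells and 524 in wild-type cells, and 1421486_at read 169.9 and 449. The wild-type signal was thus just above the floor in both cases and the knockout signal under it. Against the floor these are at least 1.33-fold and at least 1.14-fold lower. As deposited, with no floor, they are 4.49-fold and 2.64-fold lower. Of the 3563 genes with a mean between 0.5 and 1 times the floor, 27.5% were at least 2-fold lower in the knockout as deposited, and 34.1% at least 2-fold higher. The share with a gap as large as 4.49-fold, or with 2 probe sets on the same side, was not computed.

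Egr2, which acts alongside Egr3 at beta-selection, stayed under the floor on both arrays. Probe set 1427683_at read 77.1 in knockout cells and 218 in wild-type cells, and 1427682_a_at read 88.2 and 73.8. The probe sets therefore pointed opposite ways, and neither passed the floor. Its signal did not allow a difference to be read on these arrays.

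Nr4a1, also known as Nur77 and a reporter of antigen receptor signal strength, read 1054 in knockout cells and 1134 in wild-type cells. The log2 ratio was -0.10, and between -0.23 and -0.08 over 11 settings, of which only the normalizations and the pseudocount could move it. Its relatives, fixed in the list of other immediate early genes, were lower or dim. Nr4a2 read 251 against 832, at least 2.11-fold lower, by the 1 of its 6 probe sets that was measured, a call lost in some settings. Nr4a3 read 52.8 in knockout cells and 406 in wild-type cells, with a mean under the floor.

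The nuclear phosphatases Dusp1, Dusp2, Dusp4 and Dusp5 are induced by the kinases they switch off. Dusp1, which acts on p38 and JNK as well as ERK, read 1442 in knockout cells and 1460.1 in wild-type cells, a log2 ratio of -0.02. Dusp2, known in T cells as PAC-1, read 3843 and 3404, a log2 ratio of 0.18. Dusp4 read 973 and 804, a log2 ratio of 0.27. All 3 signals were above the floor on both arrays, and all 3 ratios lay within the SD between probe sets.

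Dusp5, a nuclear phosphatase selective for ERK, stood apart from these 3 in size. Its single probe set, 1437199_at, read 1523 in knockout cells and 229 in wild-type cells. Only the knockout signal was above the floor, so the fold is a lower bound, at least 3.87-fold, with a log2 ratio of 1.95. That is 3.39 times the SD between probe sets, and 0.585% of measured genes had a higher ratio. Among the 2532 genes with a mean between 2 and 4 times the floor, as for Dusp5, 9.6% were at least 2-fold higher. The log2 ratio stayed above 1 in all 11 settings, from 1.47 with a floor at the 60th percentile to 2.73 without a floor. Settings that change only the choice of probe sets or the entry rule could not move it. No second probe set was there to check it.

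Dusp6, the cytoplasmic ERK phosphatase and a common readout of the pathway, was also brighter in the knockout. Probe set 1415834_at read 579 there and 242 in the wild type, at least 1.47-fold higher against the floor and 2.39-fold as deposited. Its mean of 410.4 is barely above the floor, and 20.6% of measured genes had a higher ratio. With a floor at the 60th percentile Dusp6 was no longer measured.

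Spry1, a feedback inhibitor of receptor signalling to Ras, was the lowest of the 8. Probe set 1415874_at read 606 in knockout cells and 1133 in wild-type cells, both above the floor. The log2 ratio was -0.90, 1.57 times the SD between probe sets, and 7.67% of measured genes had a lower one. It was past 2-fold in 2 of 11 settings, at -1.04 after quantile and -1.03 after loess normalization. Besides these, only median centring and the pseudocount could move it. Spry2 differed less, with 685 against 823 and a log2 ratio of -0.26. Spry1 and Dusp5, both ERK feedback genes, thus lay on opposite sides of 0.

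**Figure D2:**
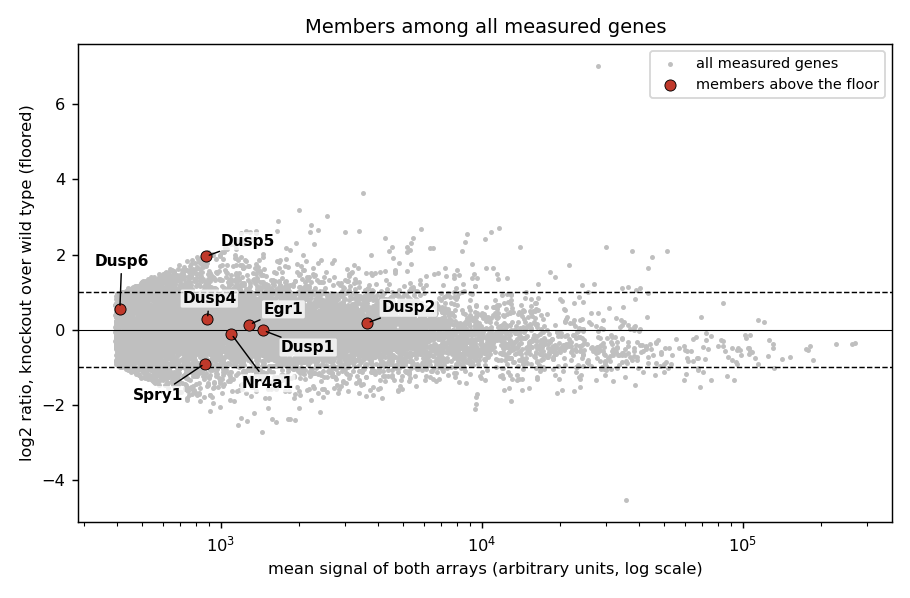
Log2 ratio of knockout over wild type, after the floor, against the mean signal of both arrays on a logarithmic axis, for the 10770 measured genes (grey) and the 8 measured members (red). Dashed lines mark 2-fold. Dusp5 at 1.95 is the only member outside them, and Spry1 at -0.90 is just inside.

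Promoters of these genes were read for sites of the factors that act on them. RefSeq windows of the GRCm38.p6 build were matched by symbol for 7 of the 10 genes. Egr1, Egr3 and Dusp4 had no window and were not searched. The 250 bases before each start were searched on both strands for a CArG box (the SRF site), GCGNGGGCG (the Egr site), TGACGTCA (the cAMP response element, CRE) and TGANTCA (the AP-1 site). The 150 bases before the start are printed below for 6 of the 7 genes with a window, and 30 bases around the CArG box for Egr2. Capitals mark CArG boxes, its variant CCTTGTATGG, Egr sites and the CRE.
Dusp5, chr19:53528995-53529144, + strand: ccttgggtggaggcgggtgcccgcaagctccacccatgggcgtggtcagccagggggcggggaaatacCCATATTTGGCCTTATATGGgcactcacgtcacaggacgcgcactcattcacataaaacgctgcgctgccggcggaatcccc
Egr2, chr10:67537787-67537816, + strand: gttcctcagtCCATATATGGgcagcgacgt
Dusp2, chr2:127336009-127336158, + strand: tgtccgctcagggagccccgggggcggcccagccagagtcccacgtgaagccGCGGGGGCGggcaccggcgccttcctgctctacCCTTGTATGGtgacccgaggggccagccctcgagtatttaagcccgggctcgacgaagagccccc
Nr4a1, chr15:101266696-101266845, + strand: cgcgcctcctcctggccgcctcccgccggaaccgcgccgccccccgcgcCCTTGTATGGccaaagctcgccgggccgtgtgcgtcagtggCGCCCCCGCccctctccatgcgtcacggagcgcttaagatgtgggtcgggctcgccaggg
Dusp1, chr17:26508473-26508622, - strand: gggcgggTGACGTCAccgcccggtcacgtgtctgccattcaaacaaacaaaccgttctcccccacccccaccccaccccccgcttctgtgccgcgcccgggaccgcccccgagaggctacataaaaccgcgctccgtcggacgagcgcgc
Dusp6, chr10:99263081-99263230, + strand: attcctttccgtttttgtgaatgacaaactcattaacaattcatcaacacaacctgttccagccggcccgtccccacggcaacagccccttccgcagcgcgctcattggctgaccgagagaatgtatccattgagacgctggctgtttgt
Spry1, chr3:37639797-37639946, + strand: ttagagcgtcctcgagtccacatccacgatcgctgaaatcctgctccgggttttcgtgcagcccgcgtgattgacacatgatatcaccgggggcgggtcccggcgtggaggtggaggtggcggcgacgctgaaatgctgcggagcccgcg

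Dusp5 holds 2 adjoining CArG boxes, CCATATTTGG from 82 to 73 bases and CCTTATATGG from 72 to 63 bases before its start. A CArG box also stood in 4 of the 5 windows of Egr2, as CCATATATGG in 3 of these that overlap one another, and in none of the other 5 genes. It occurs in 1.47% of all 32851 windows. Dusp2 and Nr4a1 share CCTTGTATGG, a CArG box with a G or C at 1 of the 6 inner positions that otherwise hold A or T. Boxes of that form, searched for after the sequences had been seen, occur in 7.24% of windows. Among the members they stood also in 1 window of Egr2, as CCAAACAAGG. Both genes also hold an Egr site, a motif found in 4.7% of windows, and Nr4a1 has it on the opposite strand, where it reads CGCCCCCGC in the line above. Dusp1 holds a CRE from 143 to 136 bases before its start, as do 1.55% of windows. The AP-1 letters, present in 6.75% of windows, were in none of the 7 genes' windows. A match is a stretch of letters, and no binding was measured.

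Of 6 genes fixed as relatives, partners or targets of the Egr factors 3 were measured, and 1 was at least 2-fold higher. Cblb, a ubiquitin ligase that restrains T cell signalling and is known as a target of Egr2 and Egr3, was 2.26-fold higher (6967 against 3088), with its 3 probe sets between 1.17 and 1.80. Id3, the inhibitor of E proteins that Egr factors induce at beta-selection, read 1779 against 3555, a log2 ratio of -0.998 and a fold of 1.998, just short of the rule. Egr4 read 53.6 in knockout cells and 678 in wild-type cells, the same side as Egr3 and likewise with a mean under the floor. The corepressor gene Nab2 read 694 and 65.3, again with a mean under the floor, and Nab1 had probe sets from -1.19 to 0.76. Fasl read 506 in knockout cells and 64.2 in wild-type cells, also with a mean under the floor. Among the measured genes, Cblb and Id3 lay on opposite sides of 0.

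Of 22 other immediate early genes 13 were measured, none was at least 2-fold higher and 1, Nr4a2, was lower. Over 11 settings 0 to 2 were higher and 0 to 7 lower. None was lower without probe sets of shared sequence, with a floor at the 60th percentile, or with a pseudocount in place of the floor. The median log2 ratio of -0.15 stayed between -0.26 and -0.03. Fos, the AP-1 subunit gene under SRF, read 1472 in knockout cells and 1676 in wild-type cells, and Jun read 1816 and 1962. Junb read 994 and 1216, and Ier2 4087 and 3574. These 4 genes had log2 ratios between -0.29 and 0.19. Zfp36l1, which encodes a protein that promotes decay of AU-rich mRNAs, had the highest ratio, with 5609 against 2865, a log2 ratio of 0.97. Klf6 and Btg2 had log2 ratios of 0.68 and 0.45, with probe sets up to 1.03 and 1.05. Among the 9 that were not measured, Atf3, Fosl1, Klf10 and Nr4a3 were among 7 with a lower signal in the knockout as deposited, where 46.5% of all 7423 unmeasured genes had one. With no floor or filter 7 of the 22 were at least 2-fold lower and 2 higher, where 15.5% and 18.5% of all genes were. Heat shock genes, which handling stress induces together with immediate early genes, included 7 measured ones. Of these 4 were at least 2-fold lower, where 5.65% of all measured genes were, and none was higher. The list's median log2 ratio was -1.001, between -1.04 and -0.64 over the settings, and the count fell to 2 without probe sets of shared sequence. Hspd1 passed at 2.001-fold, and Dnajb1 had a log2 ratio of 0.22. Hspa1b read 498 against 2749, with probe sets from -2.46 to -0.55. Hsp90aa1 read 35254 against 102237, with probe sets from -1.54 to -0.35, and Hsph1 was 2.35-fold lower. The part of such stress in the Egr and Nr4a signals was not tested.

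The kinase cascade that feeds these genes differed little. Of 17 genes fixed for the path from Ras to ERK, 11 had a named probe set, all 11 were measured, and the other 6 were not analysed here. Ksr1, a scaffold that holds RAF, MEK and ERK together, was 3.19-fold higher by its brightest probe set (1872 against 586) but at -0.20 by another measured one. No other gene passed 2-fold, and the list's median was -0.31, a sign that turned with the setting, up to 0.18. Map2k1 and Map2k2, which encode the MEK kinases, had log2 ratios of -0.42 and -0.49, but the other measured probe set of Map2k2 was at 1.46. Rasgrp1, which activates Ras in thymocytes, had one of 0.42.

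Among other phosphatases of MAP kinases, 4 of 9 were measured. Dusp10, which acts on p38 and JNK, was 3.08-fold lower in the knockout, with 671 against 2065 by its measured probe set. Dusp3, Dusp7 and Dusp22 had log2 ratios from 0.21 to 0.46. Dusp10 and Dusp5 were therefore on opposite sides by more than 2-fold each. Of 10 measured genes for other Sprouty and Spred proteins and Ras brakes, Rasa3, a GTPase-activating protein, was at least 2.42-fold higher (955 against 258), no gene was 2-fold lower, and the median was -0.0046, with either sign over the settings. Spry4 read 568 in knockout cells and 76.1 in wild-type cells, with a mean under the floor.

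None of the 10 measured genes in the list of SRF and Ets factors passed 2-fold by its brightest probe set. Their log2 ratios ran from -0.41 to 0.81, with a median of -0.01 that lay between -0.09 and 0.25 over the settings. Ets1, the brightest, read 19489 in knockout cells and 20795 in wild-type cells. Srf read 1545 and 1473, and its partner Elk4 13376 and 9769. Ets2 had the highest ratio, with its measured probe sets at 0.81 and 1.48, and passed 2-fold by their mean. Elk3 was at 0.21 by its brightest probe set and at 1.58 by its other measured one. Calcineurin and NFAT, which act on Egr2 and Egr3 beside ERK, had 10 measured genes with a median of 0.65, between 0.44 and 0.70 over the settings. Of these, Cabin1, an inhibitor of calcineurin, was at least 3.63-fold higher (1432 against 279) by the 1 of its 3 probe sets that was measured. Its wild-type signal was under the floor. Rcan3, a further calcineurin regulator, was 2.48-fold higher (1069 against 431). Rcan1, whose transcription calcineurin is known to induce, read 343 against 712, with the knockout signal under the floor. In all, 7 of the 10 had a ratio above 0 and 3 below. By their brightest probe sets Nfatc2, Ppp3ca and Nfatc1 were at 0.89, 0.74 and 0.66, Ppp3cb at -0.78 and Nfatc3 at -0.28.

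**Figure D3:**
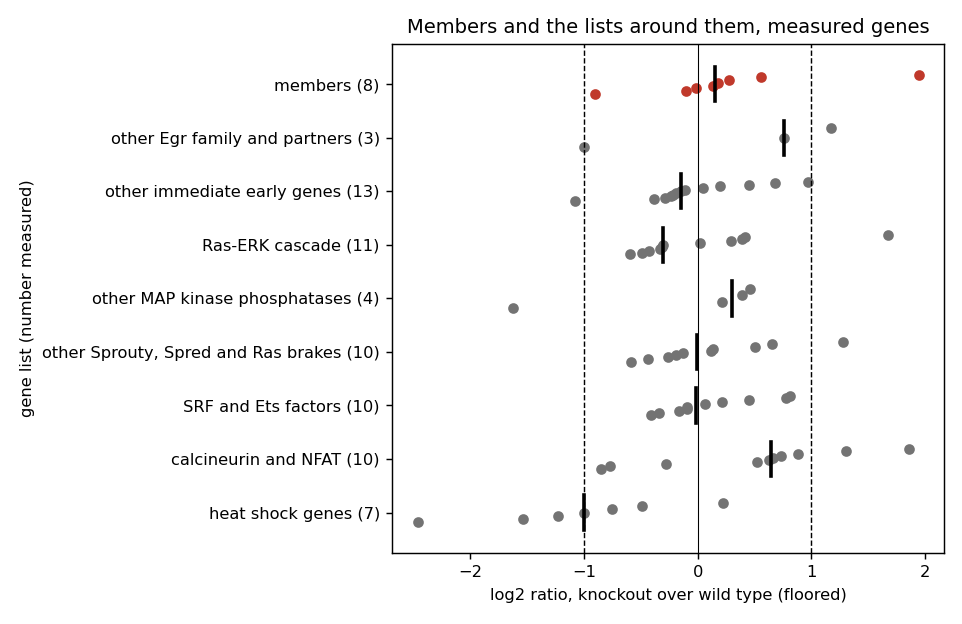
Log2 ratio of knockout over wild type, after the floor, for each measured member (red) and for the measured genes of the lists around them (grey), with the median of each as a black bar and 2-fold as dashed lines. The number measured stands beside each name. The members' median is 0.15, that of the heat shock genes is -1.001, and Dusp5 at 1.95 lies above every other gene shown.

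Summed marker signals of other cell types were higher in the knockout sample for 6 of 8 lists. In bulk RNA, fewer cells of a type and less RNA per cell cannot be told apart. The summed signal of 8 myeloid markers was 5214 in knockout cells and 2526 in wild-type cells, with 3 of 8 above the floor on each array and Itgam, S100a8 and S100a9 under it on both. For 4 B cell markers the sums were 4242 and 2382, with 3 and 2 above the floor and Pax5 under it on both. The brightest of these markers, Lyz2 and Cd79b, read 2646 against 736 and 2789 against 1499. For 3 NK markers the sums were 6884 and 2909, with Nkg7 at 4655 against 1942. For 6 stromal markers they were 6866 and 3929, with Epcam at 4947 against 2604 by its brightest probe set and a log2 ratio of -0.20 by another. Of the 3 measured stromal markers 2 were higher and 1, Krt5, was lower (756 against 863). Krt8 and Psmb11 were under the floor on both arrays. The sums were 1291 and 683 for 3 mature T cell markers. Of these, Klf2 read 1051 against 162, Ccr7 90.2 against 437, and S1pr1 was under the floor on both arrays. For 3 gamma-delta T cell markers they were 4976 and 4294. For 4 markers of later thymocytes they were 1347 and 1894, and for 2 erythroid markers 576 and 602. The part of these cells in the Dusp5, Dusp6 and Spry1 values was not tested.

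The choice of floor changed the values of the dim members. It cannot change a ratio whose signals on both arrays lie above it, as for Egr1, Nr4a1, Dusp1, Dusp2, Dusp4 and Spry1. Egr1, Nr4a1, Dusp1, Dusp2 and Dusp4 moved by less than the SD between probe sets in every setting run. Of the settings, only median centring, quantile normalization, loess and the pseudocount could move them. With a floor at the lower quartile the 2-fold rule counted Dusp5 and Dusp6 as higher and Egr3 as lower, where 16.7% of measured genes were higher and 13.9% lower. Without any floor or filter Egr2 was also lower by its brighter probe set, at a log2 ratio of -1.50, while its other probe set was at 0.26, and Egr3 stood at -2.17, with 18.5% of genes higher and 15.5% lower.

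**Figure D4:**
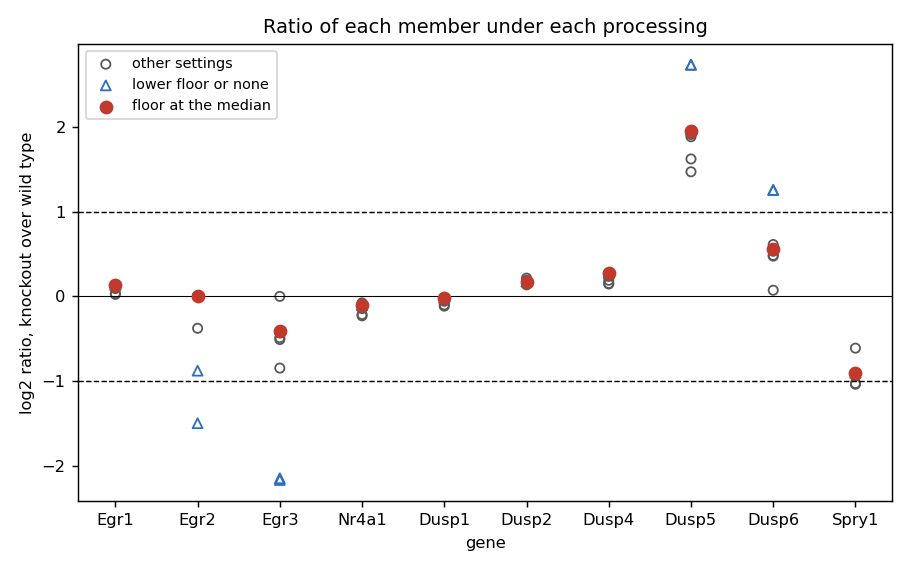
Log2 ratio of knockout over wild type for each gene with the floor at the median (filled red), with a floor at the lower quartile or none (blue triangles) and in the other settings (open circles). Dashed lines mark 2-fold. Dusp5 lies above 1 in all 11 settings, whereas Egr2 and Egr3, whose mean signal is under the floor at the median, are drawn at 0 and -0.41 there and reach -1.50 and -2.17 without a floor, by their brighter probe sets (the other Egr2 probe set is at 0.26).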

How the data were processed

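Total RNA of sorted DN3 thymocytes was amplified with biotin labelling, per the labels' protocols. The authors deposited a linear signal intensity for every probe set. The submitters' processing notes name GCOS 1.4, with no settings. Both arrays have a mean of 1000 after trimming 2% at each end. Scanner files and detection calls were not used here, and the number of arrays limits the precision.

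Of 45101 probe sets 64 are controls and were left out. Names came from the platform annotation, with symbols brought up to date through the GRCm38.p6 RefSeq table: 34958 probe sets had 1 symbol, 932 had several and 9160 non-control ones had none here. Each gene was read by its brightest probe set. Values under the floor (50th percentile) were raised to it, and a gene counted if its log2 ratio passed 2-fold and its brighter array the floor. Folds with 1 array under the floor are lower bounds. Loess used a span of 0.3 (statsmodels 0.14.6, Python 3.11.15). The ratio and fold rule were tested on simulated data. Changes larger than 2-fold were put only into genes with a mean above 4 times the floor. Of the measured members only Dusp2 was that bright, so the test does not show how the rule works for the others.

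Members and lists were chosen with earlier results of these data known. Named genes are all members, up to 3 highest and 3 lowest past 2-fold in each pathway list, or its brightest gene where none passed. Other list genes were named after their values were seen. Other settings were median centring, quantile normalization, loess, floors at the lower quartile and the 60th percentile, the mean of probe sets, no probe sets of shared sequence, a pseudocount equal to the floor, and 1.5-fold.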

Additional observations from a re-analysis of the deposited data

How the results depend on the processing

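Beside the deposited scaling with its floor, 9 alternatives were planned and 2 added after seeing the data: no floor and no filter, and entry by the brighter array. The count of members at least 2-fold higher was 1 except at the lower-quartile floor and with no floor or filter, where it was 2. The count at least 2-fold lower was 0 except after quantile normalization, after loess, at the lower-quartile floor and at a 1.5-fold threshold, where it was 1, and with no floor or filter, where it was 2. At 1.5-fold, 19.2% of measured genes were higher and 17.9% lower. The median log2 ratio of the members stayed between 0.057 and 0.15. Of 98 ratios of single members under alternatives, 90 moved by less than the SD between probe sets and 8 by more, all of these of Dusp5, Dusp6, Egr2 or Egr3, and none turned sign past 2-fold. The 90 include ratios that a setting could not change, such as those of bright members under another floor. A lower floor admits dimmer genes by construction, so what limits Egr2, Egr3 and Dusp6 is their signal against the floor. No paired analysis was possible because each genotype has 1 array, and for the same reason no array could be left out.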
